A study of Homo sapiens with 12 samples.

Results

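Aldehyde dehydrogenases (ALDH) are the enzymes that oxidise aldehydes to carboxylic acids, and 10 of their genes were followed here through epirubicin resistance and BCRP silencing in a breast cancer line: ALDH1A1, ALDH1A3, ALDH1B1, ALDH2, ALDH3A1, ALDH3A2, ALDH3B1, ALDH3B2, ALDH7A1 and ALDH9A1. The genes were taken by symbol, although earlier results of these data were known, and are 10 of the 58735 genes in the deposited tables. They encode cytosolic, mitochondrial and membrane-bound enzymes. ALDH1A1 and ALDH1A3 turn retinaldehyde into retinoic acid, the ligand of the nuclear retinoic acid receptors, and their activity is read in the fluorescent assay used to sort progenitor-like cells of the breast. ALDH2 and ALDH1B1 clear acetaldehyde in mitochondria, the ALDH3 enzymes act on aldehydes released from lipids, and ALDH7A1 and ALDH9A1 belong to the breakdown of lysine and the making of carnitine.

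The RNA-seq series holds 12 libraries, 3 in each of 4 groups, all derived from SK-BR-3, an established human breast cancer line with amplified HER2. The SK-BR-3 group is the parental line. SK/EPI is its epirubicin-resistant descendant, raised by long multistage exposure to rising concentrations of this anthracycline. SK/EPI-siBCRP is SK/EPI transfected with siRNA against BCRP, the drug efflux pump encoded by ABCG2, and SK/EPI-siControl is SK/EPI that received a control siRNA. The 2 siRNA groups therefore carry the resistant background, resistance was represented by 1 line only, and nothing states that triplicates were separate passages, so p-values cover the spread between these samples, which may be technical. SK-BR-3 and SK/EPI were deposited in a table of their own, as were the siRNA groups. Tests were made within a table, and levels of the 4 groups are set side by side without a test.

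Levels are FPKM, fragments scaled to exon length and to library size. The length joins all annotated exons of a gene, from 2849 bases for ALDH1A1 to 17970 for ALDH7A1, and can exceed that of an mRNA. Orders and shares between genes therefore depend in part on the annotation. In SK/EPI, ALDH7A1 held 4047 to 4136 reads per library and ALDH1A3 2651 to 2785, yet ALDH1A3 had the higher FPKM. Reads recovered on genes ranged from 15830381 to 20545811 per library. ABCG2 checked the labels: it measured 0.075, 0.022 and 0.0521 FPKM in SK-BR-3, 32.7 to 35.9 FPKM in SK/EPI, 32.5 to 33.7 FPKM in SK/EPI-siControl and 2.84 to 3.47 FPKM in SK/EPI-siBCRP. All 7 luminal and HER2 markers of SK-BR-3 were detected in every group, although in SK/EPI 2 of them, KRT18 and KRT8, were called higher and 4, ERBB2, KRT19, KRT7 and GRB7, lower. ERBB2 fell from a mean of 659 to 133 FPKM (adjusted p = 2e-09, limma with Benjamini-Hochberg adjustment). On BCRP silencing 1 of the 7 was called higher, KRT7, and 6 lower. Among 6 fibroblast markers the summed level was 1.58 to 1.66 FPKM in SK-BR-3 and 1.04 to 1.15 FPKM in SK/EPI, with DCN and PDGFRA at 0. Among 6 leukocyte markers the sum was 1.39 to 1.77 and 27.1 to 28.9 FPKM, with TYROBP at 0 and CD14 at 0.513 and 27.4 FPKM. Among 5 endothelial markers it was 6.7 to 7 and 27 to 28.2 FPKM, of which CDH5 was 6.77 and 27.5 FPKM. The part of these marker shifts in the ALDH values was not tested. In bulk RNA a smaller number of expressing cells and less RNA per cell cannot be told apart.

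Promoter sequence is shown for 3 genes whose mRNA behaved differently: ALDH1A1, which was lost in the resistant line, ALDH1A3, which fell on BCRP silencing, and ALDH7A1, which rose in the resistant line. Each run is the 250 bases before the RefSeq start site on GRCh38.p14, 5′ to 3′ on the strand of the gene, and capitals mark the motifs searched for on both strands, namely the GC box GGGCGG, the CCAAT box CCAAT, the TATA box TATAAA, the AP-1 site TGANTCA, the antioxidant element core TGACNNNGC and the xenobiotic element core GCGTG.
ALDH1A1, chr9:72953054-72953303, minus strand: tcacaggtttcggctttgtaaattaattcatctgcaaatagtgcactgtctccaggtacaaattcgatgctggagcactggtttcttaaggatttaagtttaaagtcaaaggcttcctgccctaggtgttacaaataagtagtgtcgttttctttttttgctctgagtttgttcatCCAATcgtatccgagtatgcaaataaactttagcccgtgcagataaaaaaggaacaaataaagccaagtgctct
ALDH1A3, chr15:100879581-100879830, plus strand: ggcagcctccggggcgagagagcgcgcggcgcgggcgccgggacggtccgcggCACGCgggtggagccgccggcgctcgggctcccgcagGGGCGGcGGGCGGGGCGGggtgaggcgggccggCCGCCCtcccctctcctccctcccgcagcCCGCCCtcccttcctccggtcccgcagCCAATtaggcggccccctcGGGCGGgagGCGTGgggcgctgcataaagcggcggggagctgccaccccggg
ALDH7A1, chr5:126595220-126595469, minus strand: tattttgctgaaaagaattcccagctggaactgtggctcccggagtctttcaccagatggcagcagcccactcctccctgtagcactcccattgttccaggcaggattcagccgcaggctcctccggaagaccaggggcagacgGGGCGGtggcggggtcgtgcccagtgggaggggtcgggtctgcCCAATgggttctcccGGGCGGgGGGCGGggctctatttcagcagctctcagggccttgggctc

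In the 300-base window that adds the next 50 bases, the ALDH1A3 promoter held 46 CpG dinucleotides and 6 GC boxes, some of which overlap, with 81.7% G and C. The ALDH1A1 window held 7 CpG, no GC box and 40.3% G and C. ALDH7A1 lay between them with 17 CpG, 3 GC boxes and 64.3%. The median was 14 CpG and 58.7% over the 35116 promoters searched, which were full 300-base entries and did not cover every chromosome. All 3 held a CCAAT box, as did 34.6% of the promoters searched, and 45% of those held a GC box. The xenobiotic core, found at 2 places in ALDH1A3 and in neither of the others, was in 36.5% of the promoters searched. No TATA box, AP-1 site or antioxidant core matched in the 3 windows, and these were in 11.5%, 7.71% and 13.3% of the promoters searched. RefSeq promoter entries matched 7 of the 10 genes, with ALDH2, ALDH3A1 and ALDH3B2 unmatched.

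**Figure D1:**
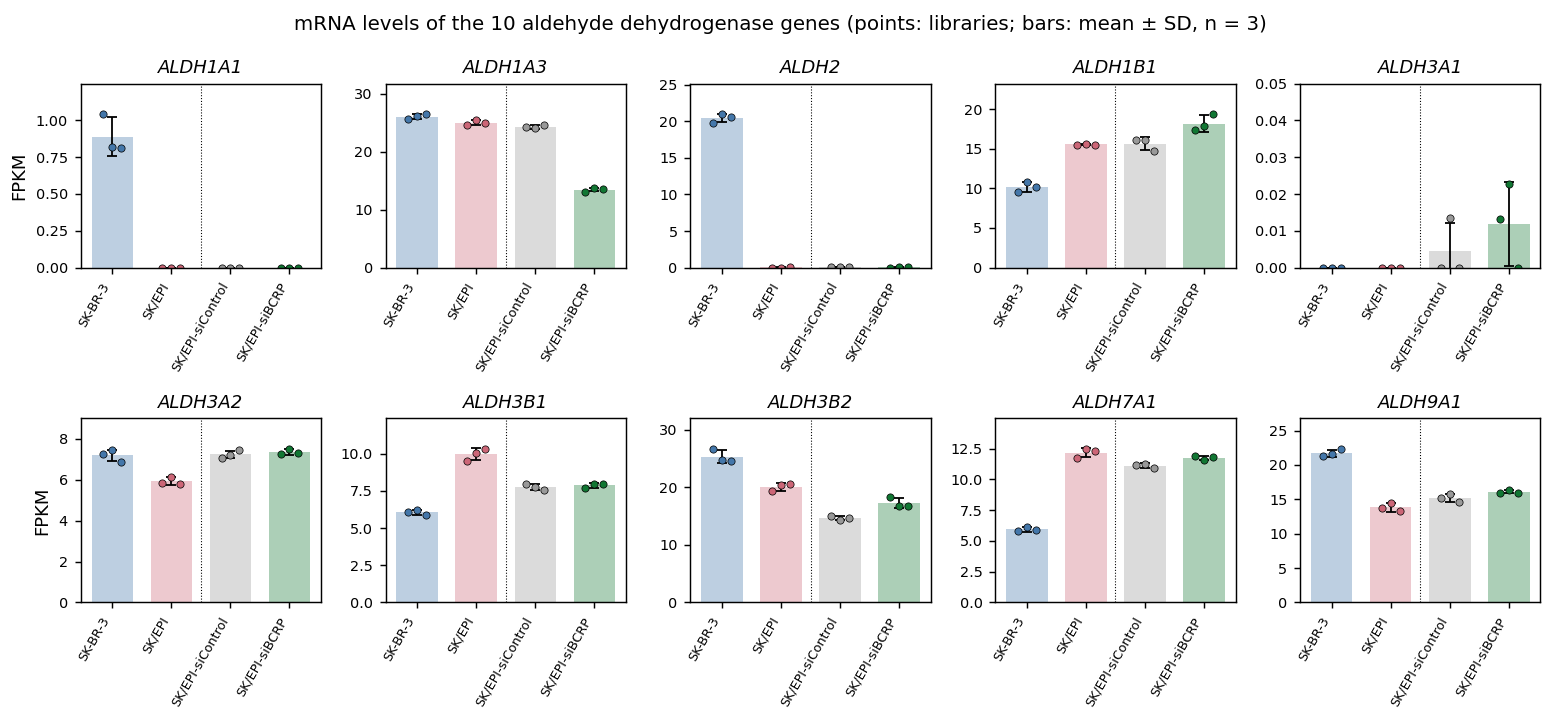
Levels of the 10 ALDH genes in FPKM, with a panel per gene, an own y axis from 0 per panel, points for libraries and bars for the mean ± SD of 3 libraries. The dotted line separates the table of SK-BR-3 and SK/EPI from that of the siRNA groups. ALDH2 and ALDH1A1 stand above the baseline only in SK-BR-3, and ALDH1A3 is lowest in SK/EPI-siBCRP.

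In SK-BR-3 the order by level was ALDH1A3, ALDH3B2, ALDH9A1, ALDH2, ALDH1B1, ALDH3A2, ALDH3B1, ALDH7A1, ALDH1A1 and ALDH3A1. The libraries of ALDH1A3 and ALDH3B2 overlapped, as did those of ALDH3B1 and ALDH7A1, while the other neighbours in the order were apart. In SK/EPI the order was ALDH1A3, ALDH3B2, ALDH1B1, ALDH9A1, ALDH7A1, ALDH3B1 and ALDH3A2, each apart from the next, with ALDH2 near 0 and ALDH1A1 and ALDH3A1 listed at 0. SK/EPI-siControl kept ALDH1A3 in front, followed by ALDH1B1, ALDH9A1 and ALDH3B2 with overlapping neighbours. In SK/EPI-siBCRP the leading gene was ALDH1B1, with ALDH3B2 overlapping it, then ALDH9A1, and ALDH1A3 came after these.

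Summed over the 10 genes, the level was 123.8 ± 0.844 FPKM (SD, n = 3) in SK-BR-3, 102.6 ± 2.19 in SK/EPI, 95.88 ± 1.17 in SK/EPI-siControl and 91.97 ± 0.668 in SK/EPI-siBCRP. In SK-BR-3 ALDH1A3 gave 21% of the sum, ALDH3B2 20.5%, ALDH9A1 17.6% and ALDH2 16.5%. In SK/EPI ALDH2 gave 0.0196%. The share of ALDH7A1 was 4.8% in SK-BR-3 and 11.9% in SK/EPI, and that of ALDH1B1 8.21% and 15.1%. ALDH1A3 gave 25.3% of the sum in SK/EPI-siControl and 14.6% in SK/EPI-siBCRP.

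**Figure D2:**
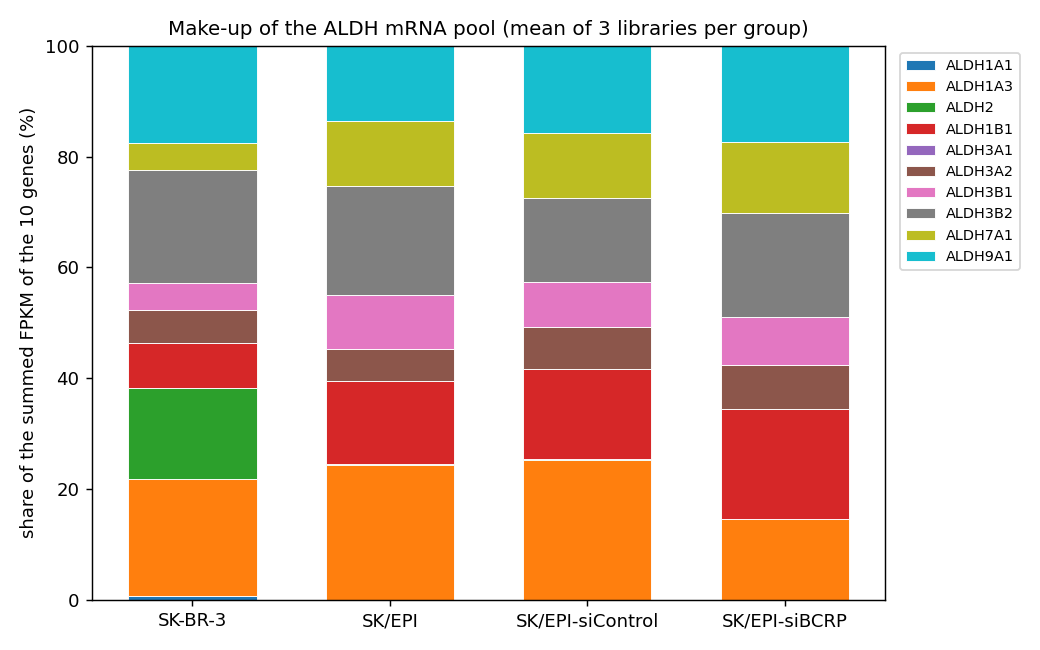
Share of each ALDH gene in the summed FPKM of the 10 genes, in percent on the y axis, as the mean of 3 libraries in each of the 4 groups on the x axis. The band of ALDH2 takes 16.5% of SK-BR-3 and is not visible in the other groups, and the ALDH1A3 band is 25.3% in SK/EPI-siControl and 14.6% in SK/EPI-siBCRP.

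The first comparison, SK/EPI against SK-BR-3, asks what differs once the line has become resistant. Of the 10 genes 9 passed the filter on low values. ALDH7A1, ALDH3B1 and ALDH1B1 rose, ALDH2, ALDH1A1, ALDH9A1, ALDH3B2 and ALDH3A2 fell, and ALDH1A3 was not called. A call is an adjusted p under 0.05 in limma on log2(FPKM + 1), with Benjamini-Hochberg adjustment over all 15823 tested genes, and fold changes below are on that scale, which understates those of low genes. In this comparison 37.9% of all tested genes were called higher and 37% lower, 74.9% in all, so 8 called of 9 is near the background. With a log2 fold change of 1 or more in size, 14.4% of all tested genes and 1 of the 9, ALDH2, were called. The median log2 fold change was -0.24 over the 9 genes and 0.0084 over all tested genes, where the median size was 0.36.

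**Figure D3:**
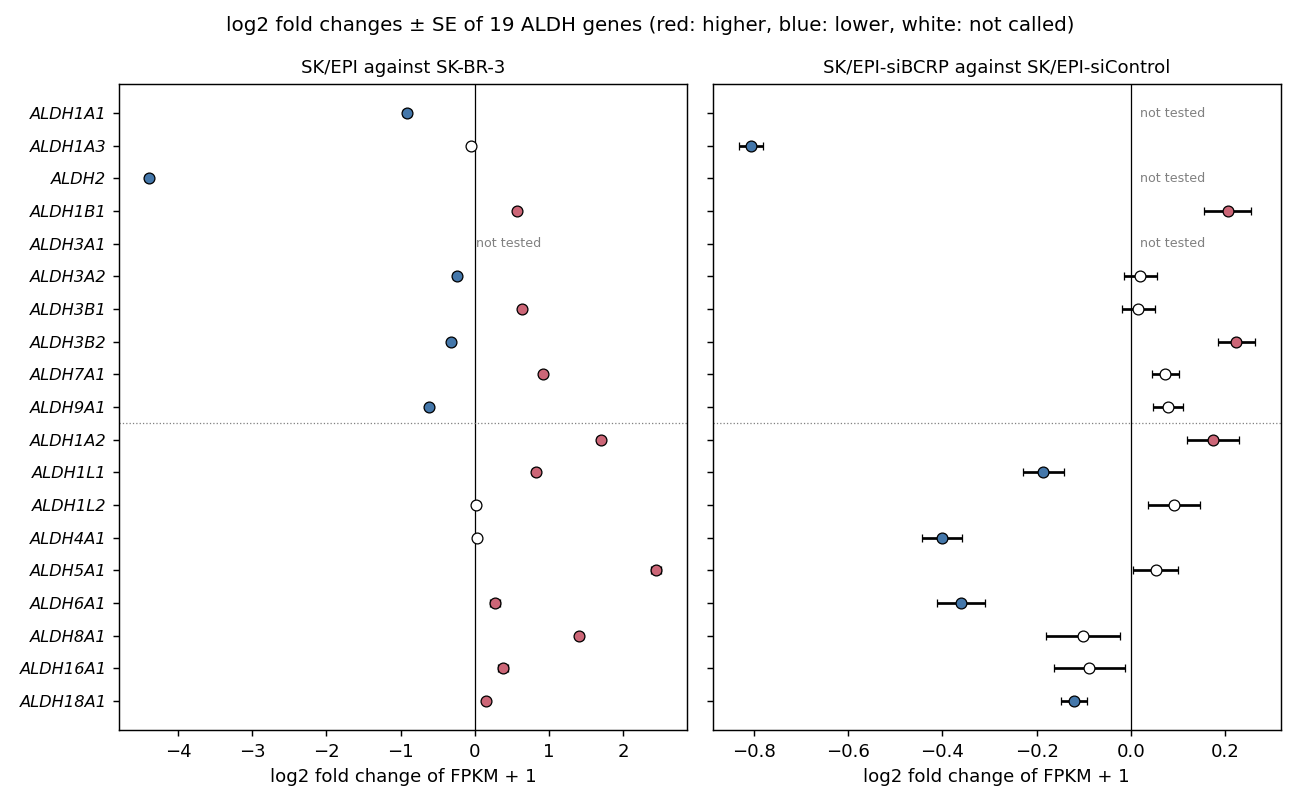
Fold changes of 19 ALDH genes on the log2(FPKM + 1) scale with SE from limma, SK/EPI against SK-BR-3 on the left and SK/EPI-siBCRP against SK/EPI-siControl on the right. The x axes differ, the dotted line separates the 10 followed genes from the other 9, and white points were not called. ALDH2 lies at -4.39 on the left and ALDH1A3 at -0.81 on the right.

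ALDH2, the mitochondrial enzyme that clears acetaldehyde and the lipid peroxidation product 4-hydroxynonenal, lies on chromosome 12 (GRCh38, 111766887 to 111817529, plus strand). It measured 19.8, 21 and 20.6 FPKM in SK-BR-3 and 0.0105, 0.0114 and 0.0385 FPKM in SK/EPI. The groups were far apart, with 3057 to 3806 reads per library in the parent and 2 to 7 in the resistant line. The log2 fold change was -4.39 ± 0.0499 (SE, adjusted p = 3e-10, limma). By pooled reads, 10541 against 11, the level was 1020 times lower, with an exact 95% binomial interval of 570 to 2040 that covers counting error only. The size on a log scale depends on the pseudocount, with -7.43 at a pseudocount of 0.1 and -9.93 in voom on recovered reads.

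ALDH2 stayed near 0 in the siRNA groups, at 0.0406, 0.027 and 0.026 FPKM in SK/EPI-siControl and 0.0159, 0.032 and 0.0372 FPKM in SK/EPI-siBCRP. These overlapped and were too low for the test, so a difference was not detectable at this depth. The genes that lie around ALDH2 differed by far less. Within 500000 bases, a window chosen after the values were seen, 12 other genes were tested, of which 3 were called higher and 5 lower, beside 37.9% and 37% of all tested genes, with log2 fold changes between -0.54 and 0.34 and a median of 0.017. ACAD10 at 9780 bases had a log2 fold change of 0.10 (adjusted p = 0.173, limma), and MAPKAPK5 at 24449 bases had -0.19 (adjusted p = 0.00956, limma). Around ALDH3B2, 3 of 29 tested genes were called higher and 22 lower (median -0.37). These were 0 and 14 of 17 around ALDH3B1 (-0.48), and 0 and 3 of 5 around ALDH9A1 (-0.47). They were 5 and 1 of 7 around ALDH7A1 (0.37), 6 and 1 of 9 around ALDH3A2 (0.17), and 4 and 2 of 14 around ALDH1A3 (0.0069). Around ALDH1B1 they were 1 and 1 of 2, and around ALDH1A1 1 and 0 of 2. The windows of ALDH3B2 and ALDH3B1 overlap and hold many of the same genes. Each also counts the other ALDH gene, so these counts are not separate observations. Whether the ALDH genes moved with their regions was not tested.

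Over the 12 libraries the genes whose log2(FPKM + 1) followed ALDH2 most closely, among the 4547 genes that averaged 10 FPKM or more, were BCAS1 (Pearson r = 0.9998), FBP1 (0.9996) and GALNT17 (0.9995). BCAS1 averaged 46.4 FPKM in SK-BR-3 and 0.00208 FPKM in SK/EPI, FBP1, a gluconeogenic phosphatase, 61.5 and 0.0919 FPKM, and GALNT17 40.2 and 0.0849 FPKM. These points share groups and tables, and such r values describe a step between SK-BR-3 and the other groups.

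ALDH1A1, which makes retinoic acid in the cytosol, lies on chromosome 9 (72900662 to 73080442, minus strand). It measured 1.04, 0.816 and 0.811 FPKM in SK-BR-3, from 42 to 47 reads, and 0 in all other 9 libraries. The log2 fold change was -0.92 ± 0.0548 (adjusted p = 1.9e-06, limma), and against a floor of 3 reads per library the level was at least 15.9-fold lower. It was a low gene in the parent, at 0.718% of the summed ALDH level. On the log scale its change was -3.3 at a pseudocount of 0.1 and -6.48 in voom.

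ALDH1A3, the other maker of retinoic acid among the 10, lies on chromosome 15 (100877714 to 100916626, plus strand). By FPKM it was the leading or joint leading ALDH gene in 3 of the 4 groups. It measured 25.6, 26.1 and 26.4 FPKM in SK-BR-3 and 24.6, 25.4 and 24.9 FPKM in SK/EPI. The ranges were just apart, but the log2 fold change of -0.06 did not pass the test (95% interval -0.13 to 0.012, adjusted p = 0.116, limma). Its sign turned, to 0.0047 with libraries scaled to equal sums and 0.026 in voom.

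ALDH1B1, a mitochondrial relative of ALDH2 on chromosome 9 (38392664 to 38398661, plus strand), moved the other way. It measured 9.55, 10.8 and 10.2 FPKM in SK-BR-3 and 15.5, 15.6 and 15.5 FPKM in SK/EPI. All SK/EPI libraries were higher, with a log2 fold change of 0.57 ± 0.0456 (adjusted p = 1.1e-05, limma) and a ratio of means of 1.53.

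Of the enzymes of lipid aldehydes, ALDH3B1 (chromosome 11, 68008578 to 68029282, plus strand) measured 6.09, 6.23 and 5.87 FPKM in SK-BR-3 and 9.55, 10.1 and 10.3 FPKM in SK/EPI, a rise of 0.64 ± 0.0447 in log2 (adjusted p = 4.8e-06, limma). Its close relative ALDH3B2 (chromosome 11, 67662162 to 67681200, minus strand) went down, from 26.7, 24.8 and 24.6 FPKM to 19.3, 20.5 and 20.6 FPKM, by -0.32 ± 0.043 in log2 (adjusted p = 0.00024, limma). These relatives lie 327378 bases apart, and their directions were opposite, and they share 1.09% of the 50-base stretches of ALDH3B2. ALDH3A2, the fatty aldehyde dehydrogenase of the endoplasmic reticulum (chromosome 17, 19648136 to 19677598, plus strand), fell slightly, from 7.26, 7.43 and 6.89 FPKM to 5.86, 6.15 and 5.79 FPKM (log2 fold change -0.24 ± 0.0465, adjusted p = 0.0018, limma). ALDH3A1, a cytosolic enzyme abundant in cornea, lies 60386 bases from it on the minus strand (19737984 to 19748943) and was listed at 0 in all 6 libraries of this table.

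ALDH7A1, or antiquitin, oxidises the semialdehyde of lysine breakdown and lies on chromosome 5 (126531200 to 126595418, minus strand). It measured 5.81, 6.15 and 5.87 FPKM in SK-BR-3 and 11.7, 12.5 and 12.3 FPKM in SK/EPI. The groups did not overlap, and its log2 fold change of 0.92 ± 0.0421 (adjusted p = 3.8e-07, limma), a ratio of 2.05, was the largest rise among the 10. ALDH9A1, which oxidises an intermediate of carnitine synthesis and an aldehyde precursor of gamma-aminobutyrate (chromosome 1, 165662216 to 165698863, minus strand), fell from 21.3, 21.5 and 22.3 FPKM to 13.7, 14.5 and 13.3 FPKM (log2 fold change -0.62 ± 0.0409, adjusted p = 3.4e-06, limma).

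The other 9 genes of the superfamily went up or were not called in this comparison: 7 rose, none fell, and ALDH4A1 and ALDH1L2 had log2 fold changes of 0.024 and 0.02. In voom ALDH4A1 was called higher, at 0.11 (adjusted p = 0.0301). Their median was 0.38, against 0.0084 over all tested genes, and 3 of the 9 passed an absolute log2 fold change of 1. ALDH5A1, which oxidises succinic semialdehyde at the end of gamma-aminobutyrate breakdown, rose from 0.454 ± 0.0763 to 6.91 ± 0.412 FPKM (SD, n = 3; log2 fold change 2.44, adjusted p = 2.1e-08, limma). ALDH1A2, the third maker of retinoic acid, rose from 0.0366 ± 0.0147 to 2.36 ± 0.078 FPKM (1.70, adjusted p = 2.2e-08, limma). ALDH8A1, an enzyme of tryptophan breakdown, was at 0 in SK-BR-3 and at 1.66 ± 0.114 FPKM in SK/EPI, at least 27.8-fold higher. ALDH1L1, which oxidises formyltetrahydrofolate, rose by 0.82, and ALDH16A1, ALDH6A1 and ALDH18A1 rose by 0.38, 0.27 and 0.16 in log2. Over all 19 genes the summed level was 175.9 ± 2.16 FPKM in SK-BR-3 and 174.1 ± 3.32 FPKM in SK/EPI, a difference smaller than either SD. This closeness holds for the FPKM as deposited and depends on the scaling. Reads on genes were 99.8% to 101% of the recovered scaling total in SK-BR-3 and 92.8% to 95.4% in SK/EPI. Sums under other scalings are not given here.

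The retinoid genes around ALDH1A1, ALDH1A2 and ALDH1A3 moved in both directions. Of 28 listed genes for uptake, conversion, breakdown and sensing of retinoids 17 were tested, 7 rose and 8 fell, with a median of -0.13. STRA6, the retinol uptake receptor, rose from 0.95 to 13.4 FPKM (log2 fold change 2.89, adjusted p = 5e-09, limma) and CYP26A1, which breaks down retinoic acid, from 0.0192 to 2.86 FPKM (1.92). CRABP2, which carries retinoic acid to its receptor, fell from 33.1 to 2.21 FPKM (-3.41, adjusted p = 1.3e-09, limma), DHRS3, a retinaldehyde reductase, from 35.7 to 11.6 FPKM (-1.54), and the receptor RARA from 38.4 to 15.1 FPKM (-1.29). RDH10, which makes retinaldehyde from retinol, fell from 15.8 to 7.25 FPKM (-1.02). Of 16 genes known to respond to retinoic acid, some of them in the list above, 9 were tested, 6 rose and 3 fell, with a median of 0.50. TGM2, a transglutaminase, rose most, from 0.112 to 22.3 FPKM (4.39, adjusted p = 3.3e-10, limma), and RARRES2 rose from 0.0825 to 2.37 FPKM (1.64).

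**Figure D4:**
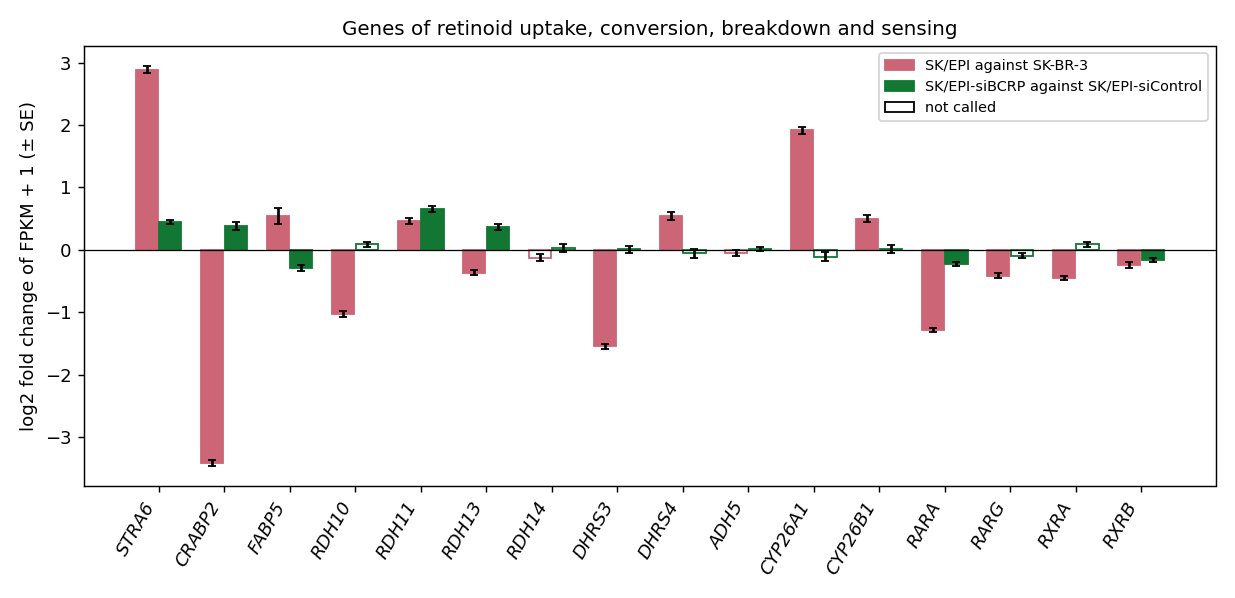
Fold changes (y axis, log2 of FPKM + 1, bars with SE from limma) of 16 of the 17 retinoid pathway genes tested in SK/EPI against SK-BR-3, ordered on the x axis from uptake to receptors, with the siRNA comparison beside each. Filled bars were called and open bars were not. STRA6 and CYP26A1 stand highest and CRABP2 lowest in the resistant line.

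Genes that handle the other substrates also moved in both directions. In lipid peroxidation and aldehyde defence 3 of 11 tested genes rose and 6 fell (median -0.24). ACSL4, which loads polyunsaturated fatty acids into membranes, rose by 2.67, while AIFM2, a suppressor of ferroptosis, fell by 2.59, ESD by 1.18 and the methylglyoxal enzyme GLO1 by 0.86 on the log2 scale. Among 12 partner enzymes in lysine, choline and gamma-aminobutyrate metabolism 7 rose and 3 fell (median 0.25). ABAT, the transaminase that acts just before ALDH5A1, rose by 2.44, from 0.808 to 8.83 FPKM, and the carnitine synthesis enzymes TMLHE and BBOX1, which act before and after ALDH9A1, rose by 0.94 and 0.87. AOC1 fell by 1.19 and DLST by 0.97. In alcohol and acetaldehyde metabolism 5 of 12 genes were tested, of which ACSS2 rose by 0.55, AKR1A1 fell by 1.17 and CAT by 0.50 (median -0.049). Among breast progenitor markers used beside ALDH activity 2 of 8 tested genes rose, CD44 (2.62) and ITGA6 (2.03), and 4 fell, with SOX9 at -2.72 and CD24 at -1.25 (median -0.061). In voom or with equal library sums 4 of these markers were called higher.

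The second comparison, SK/EPI-siBCRP against SK/EPI-siControl, asks what differs once ABCG2 is silenced for 48 hours in the resistant cells. Of the 10 genes 7 passed the filter. ALDH1A3 fell, ALDH3B2 and ALDH1B1 rose, and 4 were not called. Over the 16298 tested genes 19.4% were called higher and 18.7% lower, 38.1% in all, so 3 of 7 was near the background. With a log2 fold change of 1 or more in size these were 0.411% of all genes and none of the 7. The median log2 fold change was 0.073 over the 7 genes and -0.0036 over all genes, where the median size was 0.12. The summed markers ran from 1.39 to 1.59 FPKM over both groups for fibroblasts, from 7.26 to 8.27 FPKM in control and 8.74 to 9.6 FPKM in siBCRP libraries for leukocytes, and from 13.9 to 14.2 and 22.3 to 22.6 FPKM for endothelium, again mostly CD14 and CDH5, and their part in the ALDH values was not tested.

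ALDH1A3 measured 24.2, 24 and 24.6 FPKM in SK/EPI-siControl and 13.1, 13.7 and 13.6 FPKM in SK/EPI-siBCRP. The siBCRP libraries were all lower by a wide margin, with 1473 to 1773 reads against 2637 to 3187. The log2 fold change was -0.81 ± 0.0259 (adjusted p = 3.2e-06, limma) and the ratio of means 0.554. The value lay between -0.86 and -0.79 over 14 alternative settings. Of the exonic bases of ALDH1A3 27.5% overlap the antisense gene AC015712.2, which measured 1.37 to 1.52 FPKM in SK/EPI-siControl and 1.34 to 1.54 FPKM in SK/EPI-siBCRP. Whether counting used strand is not given in the sources used here, so reads in that stretch could belong to either gene.

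Because the siRNA itself could pair with an ALDH transcript, the strands listed for BCRP are shown with all 25 bases in capitals, each being identical to a stretch of ABCG2 mRNA.
siBCRP#1 upper strand: GGGAUACUUUGAAUCAGCUGGUUAU
siBCRP#2 upper strand: GCAGACUUCUUCUUGGACAUCAUUA
The labels do not say which was used for RNA-seq. The longest run of either shared with an ALDH1A3 transcript was 9 bases for siBCRP#1 and 7 for siBCRP#2, and over the 10 genes it was 7 to 10 bases. Reading the strands in the opposite sense gave 7 to 11 bases. Short matches of this kind are a description, and pairing with partial matches was not tested.

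Across the 12 libraries the genes closest in pattern to ALDH1A3, by the same search as for ALDH2, were CRK (r = 0.9929), XPO1 (0.9924) and PRKAR1A (0.9918). CRK averaged 26.4 FPKM in SK/EPI-siControl and 18.7 FPKM in SK/EPI-siBCRP, XPO1 24 and 16.4 FPKM, and PRKAR1A 36.6 and 22.2 FPKM, while all 3 were similar in SK-BR-3 and SK/EPI. The points share groups and tables, so these values describe a step at the siBCRP group.

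ALDH3B2 measured 15, 14.3 and 14.7 FPKM in SK/EPI-siControl and 18.3, 16.8 and 16.7 FPKM in SK/EPI-siBCRP, without overlap (log2 fold change 0.22 ± 0.0393, adjusted p = 0.00393, limma). ALDH1B1 measured 16.1, 16.1 and 14.7 FPKM and then 17.4, 17.8 and 19.3 FPKM, again without overlap (0.20 ± 0.0497, adjusted p = 0.0156, limma). The ALDH1B1 call had the highest adjusted p of the 3 and was lost with no filter on low values (adjusted p = 0.0564, within 0.00139 to 0.0564 over 14 alternatives).

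ALDH7A1 measured 10.9 to 11.3 FPKM and 11.6 to 11.9 FPKM in control and siBCRP libraries (log2 fold change 0.073, 95% interval 0.0063 to 0.14 before adjustment, adjusted p = 0.0817, limma). ALDH9A1 measured 14.7 to 15.8 FPKM and 15.9 to 16.3 FPKM (0.078, interval 0.0035 to 0.15, adjusted p = 0.093, limma). Neither passed the test although their libraries did not overlap. Non-overlap, here and for the other ALDH genes, is a description only, as its share over all tested genes is not given. ALDH3A2 overlapped between groups at 7.09 to 7.44 FPKM and 7.24 to 7.5 FPKM (0.02, interval -0.063 to 0.10), as did ALDH3B1 at 7.54 to 7.97 FPKM and 7.68 to 7.98 FPKM (0.016, interval -0.068 to 0.099). ALDH1A1 was at 0 in all 6 libraries, and ALDH3A1 at 0 in 3 of them and at no more than 0.0227 FPKM, or 2 reads, in the rest.

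Among the other 9 ALDH genes 4 fell on BCRP silencing, 1 was called higher and 4 were not called, with a median of -0.10. ALDH4A1, the mitochondrial enzyme of proline breakdown, fell from 10.2 ± 0.429 to 7.47 ± 0.297 FPKM (SD, n = 3; log2 fold change -0.40, adjusted p = 0.00037, limma), and ALDH6A1, of valine breakdown, from 7.57 ± 0.387 to 5.68 ± 0.295 FPKM (-0.36, adjusted p = 0.00143, limma). ALDH1L1 and ALDH18A1, which makes the proline precursor, fell by 0.19 and 0.12. ALDH1A2 was called higher by 0.17, from 0.656 to 0.866 FPKM (adjusted p = 0.0424, limma), a call that was lost in 9 of 13 alternatives, among them 5 of the 6 fits without 1 library. The log2 fold changes of ALDH5A1, ALDH1L2, ALDH8A1 and ALDH16A1 were 0.052, 0.091, -0.10 and -0.088, and ALDH16A1 was called lower without SK/EPI-siBCRP replicate 1 (-0.17, adjusted p = 0.0416, limma). Of the exonic bases of ALDH4A1 41.1% are shared with AL080251.1, a gene on the same strand, which measured no more than 0.0361 FPKM. How reads in the shared stretch were assigned is not given in the sources used here, so the level of either gene could be understated. Over all 19 genes the sum was 155 to 156.3 FPKM in SK/EPI-siControl and 143.9 to 145.3 FPKM in SK/EPI-siBCRP.

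In the retinoid pathway 5 of 19 tested genes rose and 3 fell (median 0.012), with RDH11, a retinaldehyde reductase, at 0.66, STRA6 at 0.45 and CRABP2 at 0.38, against FABP5 at -0.29, RARA at -0.23 and RXRB at -0.16. Of the retinoic acid responsive genes 3 of 8 rose and 1, RARRES3, fell by 0.35, a call lost with no filter, an adjusted p under 0.01, and without SK/EPI-siControl replicate 1 or SK/EPI-siBCRP replicate 2 or 3, while TGM2 was not called (-0.0099). In lipid peroxidation and aldehyde defence 5 of 11 rose, with GLO1 from 29.9 to 42.7 FPKM (0.50), AIFM2 (0.38) and ESD (0.25) in front, and PTGR1 fell by 0.31. Among partner enzymes DLST (0.64) and ABAT (0.15) rose and 4 of 11 fell, led by GCDH (-0.33), which acts after ALDH7A1 on the lysine path, and AASS (-0.32), which opens it. The count of partner enzymes called lower was 1 with no filter or an adjusted p under 0.01, and 2 without SK/EPI-siControl replicate 2 or SK/EPI-siBCRP replicate 1. In alcohol and acetaldehyde metabolism ACSS2 rose by 0.17 and ACSS1 and AKR1A1 fell, of 5 tested, with 1 called lower in place of 2 under no filter or the filter of 1 FPKM. Of 8 progenitor markers ITGA6 (-0.50), BMI1 and EPCAM were called lower, and CD24 was called higher by 0.08. The count called lower was 1 in place of 3 with no filter, with the replicate block, with an adjusted p under 0.01 and without SK/EPI-siControl replicate 1 or 2 or SK/EPI-siBCRP replicate 1 or 2. The CD24 call was lost with equal library sums, the replicate block, no trend, an adjusted p under 0.01, and without SK/EPI-siControl replicate 1 or 3 or SK/EPI-siBCRP replicate 3.

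SK/EPI and SK/EPI-siControl differ by transfection and by table, and their levels are set side by side without a test. ALDH1A3 averaged 25 and 24.2 FPKM, ALDH7A1 12.2 and 11.1 FPKM, ALDH3B2 20.1 and 14.6 FPKM, and ALDH3B1 9.98 and 7.77 FPKM, each lower in SK/EPI-siControl. ALDH9A1 averaged 13.8 and 15.2 FPKM and ALDH3A2 5.93 and 7.24 FPKM, both higher in SK/EPI-siControl. The libraries of ALDH1A3 came as near to each other as 24.62 FPKM in SK/EPI and 24.55 FPKM in SK/EPI-siControl. ALDH1B1 overlapped at 15.5 and 15.6 FPKM, and ALDH1A1, ALDH2 and ALDH3A1 were at or near 0 in both groups. Of the other ALDH genes, ALDH4A1 averaged 18.4 and 10.2 FPKM and ALDH1A2 2.36 and 0.656 FPKM. Transfection and the table cannot be told apart in these values.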

How the data were processed

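Per the submitters' processing notes, reads were handled with HISAT2 2.0.5, featureCounts 1.5.0-p3 and DESeq2 1.16.1 on hg38, and the authors deposited FPKM values in 2 tables. That the unit is FPKM was settled from the values: multiplied by merged GENCODE 29 exon length, 100.0% were whole reads within 0.02 reads. All 58735 identifiers matched GENCODE 29. Genes needed 10 reads at the median library size in 3 libraries and 15 reads in all. Each table was fitted with limma 3.58.1 in R 4.3.3 (trend, two-sided) on log2(FPKM + 1), with group as the only term. The reported adjusted p-values are Benjamini-Hochberg over all tested genes, and the script was tested on simulated data. A floor is 3 reads. No replicate pair agreed within sampling noise (chi-square per degree of freedom 1.64 to 4.27).

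Named are all ALDH genes, and from each list at most 3 called genes with the largest rise and 3 with the largest fall, plus genes whose role a sentence needs, and the 3 genes most like ALDH2 and ALDH1A3. Lists were retinoid pathway, retinoic acid responsive genes, lipid peroxidation and aldehyde defence, partner enzymes, alcohol and acetaldehyde metabolism, progenitor markers, and cell type markers. Values of 1 gene of the retinoid list are not reported here. The genes and lists were chosen with earlier results of these data known. Alternatives were a pseudocount of 0.1, no filter or 1 FPKM, 2 other scalings, no trend, voom, a replicate block, each library left out, an adjusted p of 0.01 and an absolute log2 fold change of 1.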

Additional observations from a re-analysis of the deposited data

How the results depend on the processing

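Calls of the 10 genes in SK/EPI against SK-BR-3 and of ALDH1A3 and ALDH3B2 on BCRP silencing kept their direction and their side of the threshold in every refit that gave a value (ALDH1A1 had none under the filter of 1 FPKM). With a log2 fold change of 1 or more in size, SK/EPI against SK-BR-3 left 0 of the 10 genes higher and 1 lower, 3 other ALDH genes higher, and 1245 higher and 1033 lower of all genes. In the siRNA comparison it left 0 ALDH genes in either direction and 11 higher and 56 lower of all genes. An adjusted p under 0.01 left there 1 of the 10 genes higher, 0 other ALDH genes higher and 2 lower, and 2020 higher and 1833 lower of all genes. With no filter 1 of the 10 was higher. ALDH1A2, the only other ALDH gene called higher there, gave a count of 0 with a pseudocount of 0.1, with no filter, with 1 FPKM, with equal sums and with the replicate block, and 0 to 1 when a library was left out. Signs turned only for values that were not called. In SK/EPI against SK-BR-3 ALDH1A3 gave 0.0047 with equal sums and 0.026 in voom, and ALDH1L2 -0.0074 to 0.053 with a library left out. In the siRNA comparison ALDH3B1 gave -0.0017 with equal sums and -0.0032 to 0.032 with a library left out. Voom put the median of all genes between the lines at 0.10. Voom scales to reads on genes, which were 99.8% to 101% of the scaling total of the FPKM in SK-BR-3 and 92.8% to 95.4% in SK/EPI. In the siRNA groups they were 89.5% to 90.7%. The cause of the turned signs and of the voom median was not tested. Correlations of deviations were -0.0485 to 0.0551 for same-numbered libraries and -0.05 to 0.0536 for differently numbered ones. They gave no sign of pairing by number, but values this small cannot exclude a shared passage or batch. The replicate block gave 5889 higher and 5767 lower genes between the lines and 2896 and 2744 in the siRNA comparison, with the same counts for the 10 genes, 3 higher and 5 lower, then 2 and 1. Genes under about 10 reads per library could not be tested, which leaves ALDH2, ALDH1A1 and ALDH3A1 in the siRNA groups without a test.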
